A study of Mus musculus with 10 samples.

Results

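The 34 genes described here encode lysosomal enzymes other than cathepsins, lysosomal membrane proteins other than tetraspanins, progranulin, and 3 transcription factors of the MiT family that act on such genes, Tfeb, Tfe3 and Mitf. They were taken by symbol and grouped by the main substrate of each enzyme, and they are 34 of the 26173 genes in the deposited table of expression values from mouse alveolar macrophages, which live in the airspaces of the lung. Their 73 transcripts were summed per gene as fragments per kilobase of transcript, scaled to library size (FPKM), and 33 of the 34 genes had at least 1 FPKM in at least 2 samples. The gene that did not was Sgsh.

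Alveolar macrophages of C57BL/6 mice, labelled female and 16 weeks old, were profiled in 5 groups of 2 samples each. In 3 of them the gene of Bach2, a repressor of transcription in lymphocytes and myeloid cells, had been floxed and the line carried Cre under Cd4, a driver active in T cells, so the macrophages themselves need not have lost the gene. The aberrant-marker and the normal-marker macrophages came from the knockout mice of that line and were separated by surface phenotype, and the conditional control macrophages were its controls. The other groups were macrophages of mice with a germline loss of Bach2 and of wild-type mice. The labels do not say how many mice gave each sample or whether mice were pooled, and the RNA input was 100 pg with 18 cycles of PCR.

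Both samples of a group differed by little more than sampling noise. Their log2 values correlated across genes at 0.996 to 0.999 within groups, against 0.845 to 0.929 between groups, and each pair was counted as 1 library. No comparison here therefore has a biological replicate or a p-value. Calls rest on size: 2 libraries had to differ by at least 2-fold on the log2(FPKM + 1) scale in the mean and in every pairing of their samples, with 20 FPKM or more in the higher library. Differences are given on that scale, which understates the change of low genes. Between the samples of a library the median absolute log2 difference of the 34 genes was 0.021 to 0.0468, and the largest was 0.452, for Glb1 in the germline knockout. Estimated depth was 7.48 to 9.40 M fragments per sample, at which 1 read on a transcript of 2 kb is worth 0.0532 to 0.0668 FPKM.

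Several checks of the labels bear on all that follows. Bach2 itself lay near the detection limit in all 5 libraries, at 0.0203 FPKM in the aberrant-marker, 0.0571 in the normal-marker and 0.0186 in the conditional control library. It read about 0 and 0.0584 FPKM in the germline knockout samples and about 0 in both wild-type samples, so the targeted gene checks no label. Against the label female, Eif2s3y, a gene of the Y chromosome, read 39.9 FPKM in the germline knockout and 60.8 FPKM in the wild-type library, and Xist read 9.09, 6.83 and 3.75 FPKM in the aberrant-marker, normal-marker and conditional control libraries and about 0 in those 2. All 10 fixed alveolar macrophage markers were present at 1 FPKM or more in the normal-marker, conditional control and wild-type libraries, and 8 of 10 in the aberrant-marker and germline knockout libraries. Markers of other cells moved with the aberrant-marker library. The 8 dendritic cell markers summed to 5479 FPKM there, 73.5 FPKM in the normal-marker, 29.5 FPKM in the conditional control, 287 FPKM in the germline knockout and 66.1 FPKM in the wild-type library. The 7 measured markers of monocyte-derived or interstitial macrophages summed to 910.2 FPKM in the aberrant-marker, 42.3 FPKM in the normal-marker, 14.4 FPKM in the conditional control and 389 FPKM in the germline knockout library, and all 7 were at or near 0 in the wild-type library. Of 7 T cell markers 6 reached 1 FPKM in the aberrant-marker library and 1, Cd2, in the others. The list summed to 171 FPKM in the aberrant-marker library, against 24.9 to 455 FPKM in the other 4. Nearly all of the sums in the other 4 was Cd2, which read 45.7 FPKM in the aberrant-marker library. Against the conditional control, Cd2 was called lower in the aberrant-marker library, and Cd3g, Lck and Lat were called higher. The defining Cd3e read 17.7 FPKM in the aberrant-marker library and was listed at 0 in the rest. B cell markers were at 0 in all libraries, and the 4 neutrophil markers summed to 4.83 to 44.1 FPKM and the 4 epithelial markers to 74.4 to 185 FPKM. In such bulk samples fewer cells of a type and less RNA per cell cannot be told apart.

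The lysosome takes in material from phagocytosis, endocytosis and autophagy and breaks it down with acid hydrolases, each of which removes a given sugar, sulfate, acyl chain or peptide. Alveolar macrophages depend on it to degrade surfactant, and loss of single enzymes causes storage diseases in which the undigested substrate fills such cells. Many of these genes carry near their start the palindrome CACGTG, an E-box that is the core of the longer CLEAR element through which TFEB, TFE3 and MITF raise their transcription.

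The stretches below show which of the 34 genes carry that E-box near their start, because it is the known point of contact of the MiT factors with the group. In RefSeq promoter windows of mouse build GRCm38.p6, from 250 bases before to 50 bases after each annotated start, 31 of the 34 genes had a window. The E-box CACGTG, which reads the same on both strands, was present in a window of 8 of the 31 genes (25.8%), against 8.09% of the 27025 genes in the table. The longer TCACGTGA, which contains it and is also its own reverse complement, was present in Gla and Mcoln1 (6.45%), against 1.12% of all genes. Each stretch is printed 5′ to 3′ on the strand of the gene, with the E-box in capitals and 25 bases on either side, except that the stretch of Gla begins where its window begins.
Arsa (chr15:89477410-89477465, minus strand): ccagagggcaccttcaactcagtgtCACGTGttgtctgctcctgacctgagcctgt
Gaa (chr11:119267798-119267853, plus strand): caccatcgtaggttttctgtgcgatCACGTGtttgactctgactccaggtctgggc
Gla (chrX:134601169-134601255, minus strand): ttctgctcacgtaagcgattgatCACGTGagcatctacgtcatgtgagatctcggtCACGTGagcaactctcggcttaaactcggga
Glb1 (chr9:114401005-114401060, plus strand): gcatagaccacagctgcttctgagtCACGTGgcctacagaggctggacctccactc
Lamp1 (chr8:13159075-13159176, plus strand): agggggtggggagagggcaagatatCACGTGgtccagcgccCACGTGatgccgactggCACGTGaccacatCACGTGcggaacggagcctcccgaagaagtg
Mcoln1 (chr8:3500423-3500504, plus strand): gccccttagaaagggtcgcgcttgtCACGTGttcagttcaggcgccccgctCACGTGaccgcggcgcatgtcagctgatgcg
Naglu (chr11:101069996-101070051, plus strand): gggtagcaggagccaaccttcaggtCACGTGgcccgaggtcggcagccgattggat
Sgsh (chr11:119355509-119355564, minus strand): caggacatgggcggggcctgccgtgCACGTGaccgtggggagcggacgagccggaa
Against their own controls, calls among the 8 genes went both ways. Sgsh, at or near 0 in all samples, had no direction. Gla was under the floor of 20 FPKM in the comparisons with the conditional control and could not be called there. In the aberrant-marker library Arsa was called lower, in the germline knockout Gla was called higher and Arsa lower, and in the normal-marker library Naglu was called higher and Arsa lower. Also called lower in the aberrant-marker library were Man2b1, Manba, Fuca1, Neu1, Gusb, Ids, Ppt1, Pla2g15 and Tcirg1. Their windows, like those of most of the 31 genes, did not hold these letters. Aga, Asah1 and Galns had no window. These calls were not set against the share of all genes, and a link between the letters and the calls was not tested.

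Psap had the highest level of the group in every library. Its product, prosaposin, is cut into the saposins that present sphingolipids to their hydrolases. It read 2461 and 2462 FPKM in the aberrant-marker samples, 3586 and 3619 FPKM in the normal-marker, 2481 and 2477 FPKM in the conditional control, 5981 and 5964 FPKM in the germline knockout and 1967 and 1999 FPKM in the wild-type samples. It ranked 28, 15, 24, 9 and 28 among all genes in those libraries. Next in level came Lamp1, at 868 to 1518 FPKM, and then Hexa and Grn, at 376 to 768 FPKM. Of the 34 genes 20 had at least 20 FPKM in every library, and 5 stayed under 20 FPKM in every library (Galc, Arsb, Sgsh, Idua and Mitf). Sgsh, the sulfamidase of heparan sulfate degradation, was listed at or near 0 in all 10 samples. Summed over the 34 genes the level was 5534 FPKM in the aberrant-marker, 7977 FPKM in the normal-marker, 6774 FPKM in the conditional control, 11296 FPKM in the germline knockout and 6305 FPKM in the wild-type library. Without Psap these sums were 3073 FPKM in the aberrant-marker, 4375 FPKM in the normal-marker, 4294.5 FPKM in the conditional control, 5324 FPKM in the germline knockout and 4322 FPKM in the wild-type library.

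**Figure D1:**
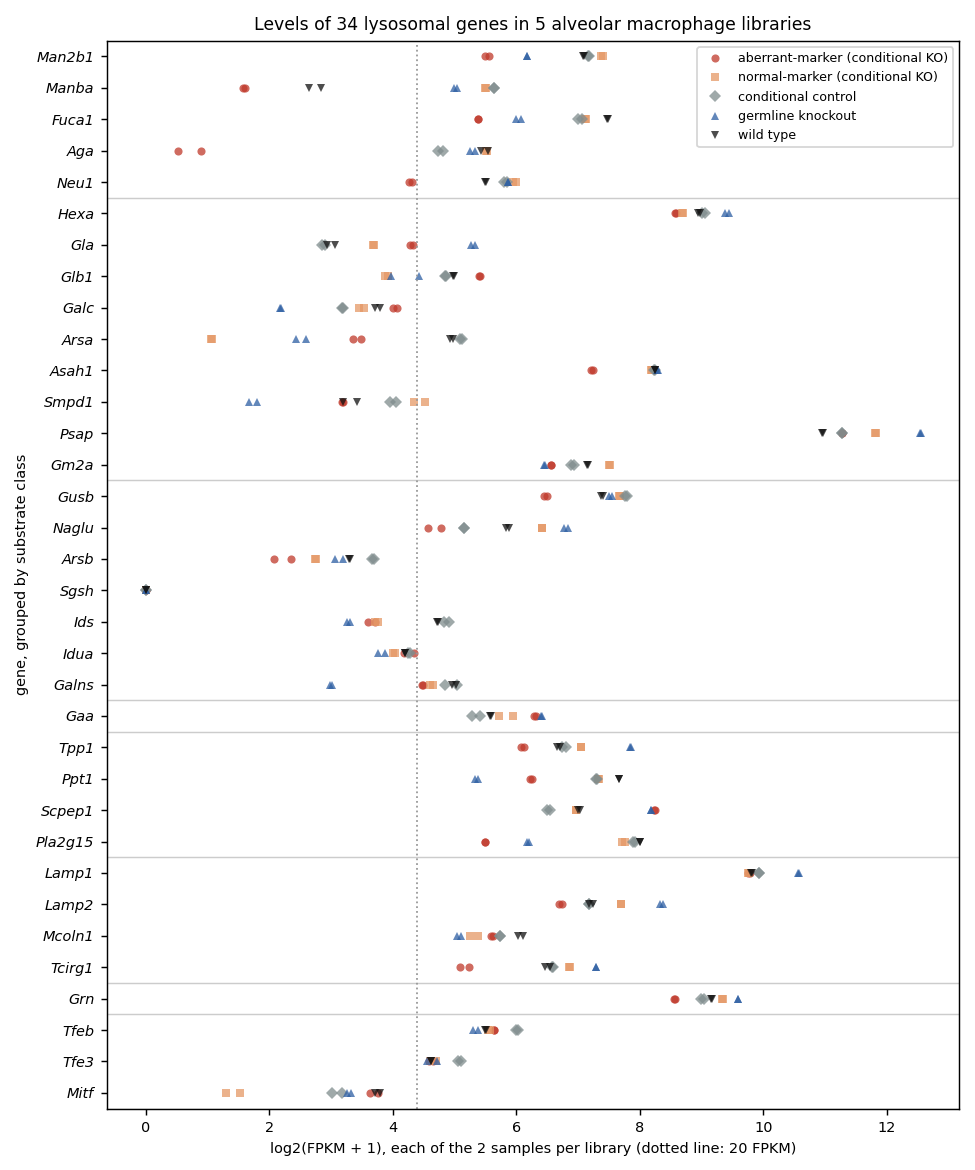
Level of each of the 34 genes, in log2(FPKM + 1), in the 5 libraries, with the genes ordered by substrate class, 1 symbol for each of the 2 samples per library, and a dotted line at 20 FPKM. Psap lies highest in every library, Sgsh lies at 0, and the aberrant-marker symbols of Manba and Aga lie far below those of the conditional control.

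Aberrant-marker macrophages, against conditional control macrophages, had lower levels of 11 of the 27 genes that reached 20 FPKM in either library. These were all 5 enzymes that take apart the sugar chains of glycoproteins, together with Arsa, Gusb, Ids, Ppt1, Pla2g15 and Tcirg1. Scpep1 was the 1 gene called higher. The share called lower was 40.7%, against 22.1% of all genes that reached the same floor, and the share called higher was 3.70%, against 20.8%. At 4-fold 3 genes were called, Manba, Aga and Pla2g15 (11.1%, against a background of 19.0%). The median difference of the 33 genes compared was -0.46, with 26 below 0 and 7 above, against a median of 0 over all 11336 genes compared and of -0.07 over those with a mean of at least 20 FPKM.

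All 5 enzymes of glycoprotein sugars were lower, and the differences of Aga and Manba were the largest among the 34 genes in this comparison. Aga, the aspartylglucosaminidase that cuts the link between sugar chain and asparagine, read 0.868 and 0.440 FPKM in the aberrant-marker samples, against 25.6 and 27.2 FPKM in the conditional control samples. That is a log2 difference of -4.05, and the aberrant-marker and conditional control values lay far apart. Manba, the beta-mannosidase that acts last on the chain, read 2.05 and 1.99 FPKM in the aberrant-marker samples, against 49.0 and 48.6 FPKM in the conditional control samples (-4.04). The wild-type samples were also low for Manba, at 6.12 and 5.25 FPKM, so the 2 control libraries themselves lay far apart. Against wild type the aberrant-marker level of Manba was under the floor of 20 FPKM in both libraries and could not be called.

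Man2b1, the lysosomal alpha-mannosidase, read 44.2 and 46.0 FPKM in the aberrant-marker samples, against 144 and 143 FPKM in the conditional control samples (-1.65). Fuca1, the alpha-fucosidase, read 40.5 FPKM in both aberrant-marker samples, against 134 and 127 FPKM in the conditional control samples (-1.66). Neu1, the sialidase that removes terminal sialic acid, read 18.1 and 18.8 FPKM in the aberrant-marker samples, against 56.9 and 54.5 FPKM in the conditional control samples (-1.54). For these 3 genes and for Aga every aberrant-marker value lay below every value of the other 4 libraries. The share of all genes for which this holds was not counted. The 5 enzymes summed to 106.7 FPKM in the aberrant-marker, 456 FPKM in the normal-marker, 405 FPKM in the conditional control, 263 FPKM in the germline knockout and 406 FPKM in the wild-type library, and their median difference in the aberrant-marker library was -1.66. The alveolar macrophage markers moved with them, and 8 of 10 were also called lower in the aberrant-marker library (80%, against 22.1% of all genes). There the list summed to 8626 FPKM, against 11960 FPKM in the conditional control. Most of these sums is Chil3, which was not called, and the other 9 summed to 334 FPKM in the aberrant-marker library, against 2790 FPKM in the conditional control. All 8 dendritic cell markers were called higher there (100%, against 20.8% of all genes). So were all 4 markers of monocyte-derived or interstitial macrophages that reached the floor, of 7 measured (100%, against 20.8%). Every marker of both lists lay under 20 FPKM in the conditional control, so those at the floor could be called only higher. Their shares are therefore not comparable with the background. The part of the other cell types and of this lower identity list in the lower enzyme levels was not tested.

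**Figure D2:**
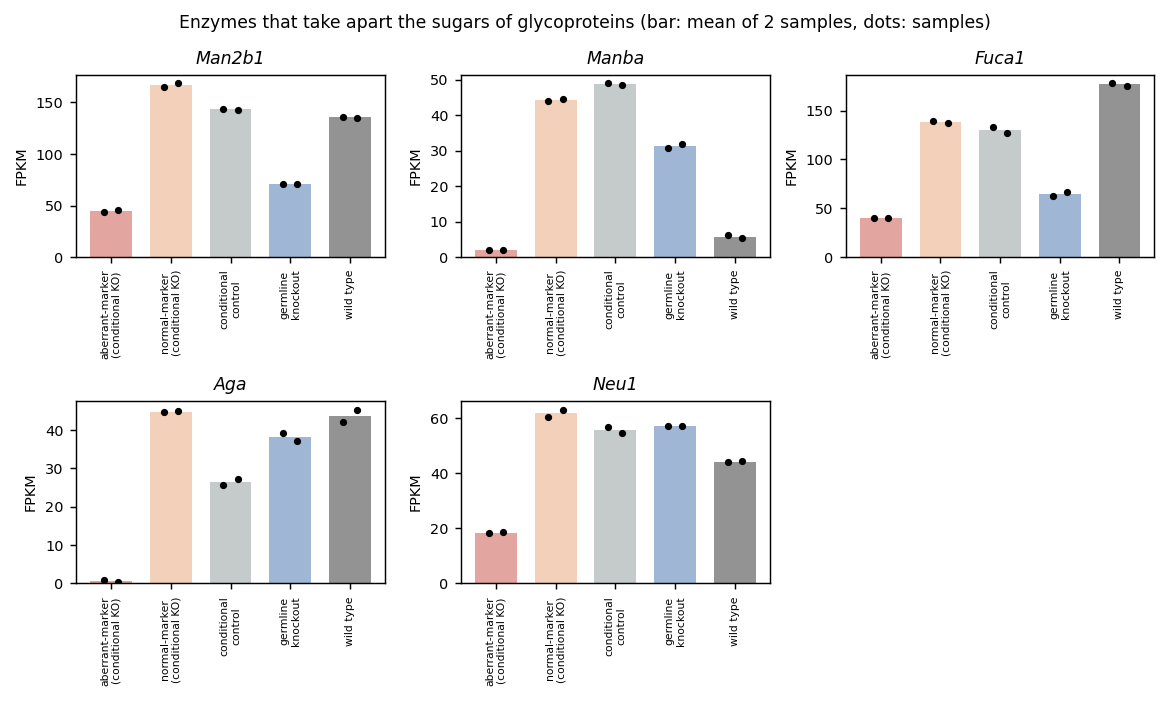
FPKM of the 5 enzymes of glycoprotein sugars in the 5 libraries on linear axes that start at 0, with bars for the mean of 2 samples and dots for the samples. All 5 are lower in the aberrant-marker than in the normal-marker and conditional control libraries, and Manba is low in the wild-type library as well.

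Of the 6 sphingolipid genes at the floor, Arsa alone was called in the aberrant-marker library (16.7%, against 22.1% of all genes lower). Arsa, the arylsulfatase that desulfates sulfatide, read 9.28 and 10.2 FPKM in the aberrant-marker samples, against 33.7 and 33.2 FPKM in the conditional control samples (-1.68). Asah1, the acid ceramidase, read 147 and 149.7 FPKM in the aberrant-marker samples, against 303 and 299 FPKM in the conditional control samples. Its difference of -1.02 passed 2-fold in the mean but not in every pairing of samples, so it was not called. Gla, the alpha-galactosidase, differed by 1.43 with 18.8 FPKM in the aberrant-marker library against 6.36 FPKM in the conditional control library, just under the floor of 20 FPKM. The other 6 genes of the class differed by -0.81 to 0.85, Psap among them at -0.01. The sphingolipid genes summed to 3178 FPKM in the aberrant-marker library, against 3511 FPKM in the conditional control library, and without Psap to 717 FPKM in the aberrant-marker library, against 1032 FPKM in the conditional control library.

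The glycosaminoglycan enzymes gave 2 lower calls among 4 at the floor (50%, against 22.1% of all genes). Gusb, the beta-glucuronidase, read 89.2 and 86.0 FPKM in the aberrant-marker samples, against 222 and 216 FPKM in the conditional control samples (-1.31). Ids, the iduronate sulfatase, read 12.1 and 11.1 FPKM in the aberrant-marker samples, against 29.2 and 27.4 FPKM in the conditional control samples (-1.22). Arsb, a sulfatase of dermatan sulfate, differed by -1.46 but stayed under 20 FPKM, at 3.66 FPKM in the aberrant-marker and 11.8 FPKM in the conditional control library. Idua, the iduronidase whose substrate is exposed by Ids, read 18.3 FPKM in the aberrant-marker and 18.2 FPKM in the conditional control library. Gaa, the acid alpha-glucosidase of glycogen, read 78.8 and 77.3 FPKM in the aberrant-marker samples, against 41.4 and 37.8 FPKM in the conditional control samples. Its difference of 0.96 lay just under 2-fold.

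Enzymes of peptides, acyl chains and phospholipids went both ways. Pla2g15, the lysosomal phospholipase that degrades surfactant phospholipid, read 44.0 FPKM in both aberrant-marker samples, against 242 and 237 FPKM in the conditional control samples (-2.42). Ppt1, the palmitoyl-protein thioesterase, read 73.3 and 75.7 FPKM in the aberrant-marker samples, against 157 and 155 FPKM in the conditional control samples (-1.06). Scpep1, a serine carboxypeptidase, was higher, with 298 and 301 FPKM in the aberrant-marker samples, against 89.3 and 92.6 FPKM in the conditional control samples (1.71). Scpep1 was called higher against the normal-marker and the wild-type library as well. Tpp1, the tripeptidyl peptidase, was not called, at 67.3 FPKM in the aberrant-marker and 108 FPKM in the conditional control library (-0.68).

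Of the 4 membrane proteins Tcirg1 was called lower (25%, against 22.1% of all genes). It encodes a subunit of the membrane part of the proton pump, and read 36.5 and 33.0 FPKM in the aberrant-marker samples, against 96.0 and 94.0 FPKM in the conditional control samples (-1.43). Lamp1 and Lamp2, the main glycoproteins of the lysosomal membrane, differed by -0.15 and -0.46. Mcoln1, the mucolipin calcium channel, differed by -0.12, and Grn, the precursor of the granulins, by -0.46.

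The wild-type library gave a second reference for the aberrant-marker macrophages. Apart from both control libraries at once, 9 of 26 genes at the floor were lower in the aberrant-marker library (34.6%, against 14.7% of all genes) and Scpep1 was higher (3.85%, against 16.7%). The 9 were Arsa, Ids, Man2b1, Fuca1, Aga, Neu1, Ppt1, Pla2g15 and Tcirg1. Gusb was 87.6 FPKM in the aberrant-marker and 166 FPKM in the wild-type library, short of 2-fold.

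Aberrant-marker macrophages also differed from the normal-marker macrophages of the same line. Of 26 genes at the floor 11 were lower (42.3%, against 20.2% of all genes) and Glb1 and Scpep1 were higher (7.69%, against 22.8%), and at 4-fold there were 3 calls (11.5%, against 17.9%). The 3 were again Manba, Aga and Pla2g15. This comparison shares the aberrant-marker library with the one above. Glycoprotein enzymes gave 5 of the 11, with a class median of -1.87. Naglu, the N-acetylglucosaminidase of heparan sulfate, read 22.9 and 26.4 FPKM in the aberrant-marker samples, against 84.8 and 84.7 FPKM in the normal-marker samples (-1.74). Smpd1, the acid sphingomyelinase, read 8.07 and 8.20 FPKM in the aberrant-marker samples, against 19.2 and 21.996 FPKM in the normal-marker samples (-1.24). Glb1, the beta-galactosidase, was higher, at 41.3 and 41.5 FPKM in the aberrant-marker samples, against 13.7 and 14.1 FPKM in the normal-marker samples (1.51). The median over the 34 genes was -0.54, against -0.03 over all genes with a mean of at least 20 FPKM.

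Normal-marker macrophages gave 3 calls against the conditional control. Arsa read 1.11 and 1.08 FPKM in the normal-marker samples, against 33.7 and 33.2 FPKM in the conditional control samples, a difference of -4.04 and the 1 call at 4-fold (3.57%, against 4.70% of all genes). Ids read 12.1 and 12.5 FPKM in the normal-marker samples, against 29.2 and 27.4 FPKM in the conditional control samples (-1.14). Naglu was higher, at 84.8 and 84.7 FPKM in the normal-marker samples, against 34.5 FPKM in both conditional control samples (1.27). Of the 28 genes at the floor 7.14% were thus lower, against 10.7% of all genes, and 3.57% higher, against 8.87%. Against both control libraries at once Arsa was lower (3.57%, against 4.30%) and 0 genes were higher (background 4.38%). None of the 5 glycoprotein enzymes was called in this library (background 8.87% higher and 10.7% lower), and their median difference was 0.15. Arsa and Ids were thus called lower in all 3 knockout libraries against their own controls. The aberrant-marker and normal-marker libraries share the conditional control, and the share of all genes lower in all 3 was not counted. In the normal-marker library the dendritic cell markers summed to 73.5 FPKM, against 29.5 FPKM in the conditional control, with Batf3 called higher, and the markers of monocyte-derived or interstitial macrophages to 42.3 FPKM, against 14.4 FPKM in the conditional control, with C1qb called higher. Batf3 and C1qb were the only markers of those lists at the floor. Of the 10 alveolar macrophage markers 3 were called higher (30%, against 8.87%) and 2, Siglec5 and Krt79, lower (20%, against 10.7%). The part of these markers in the lower levels of Arsa and Ids was not tested.

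**Figure D3:**
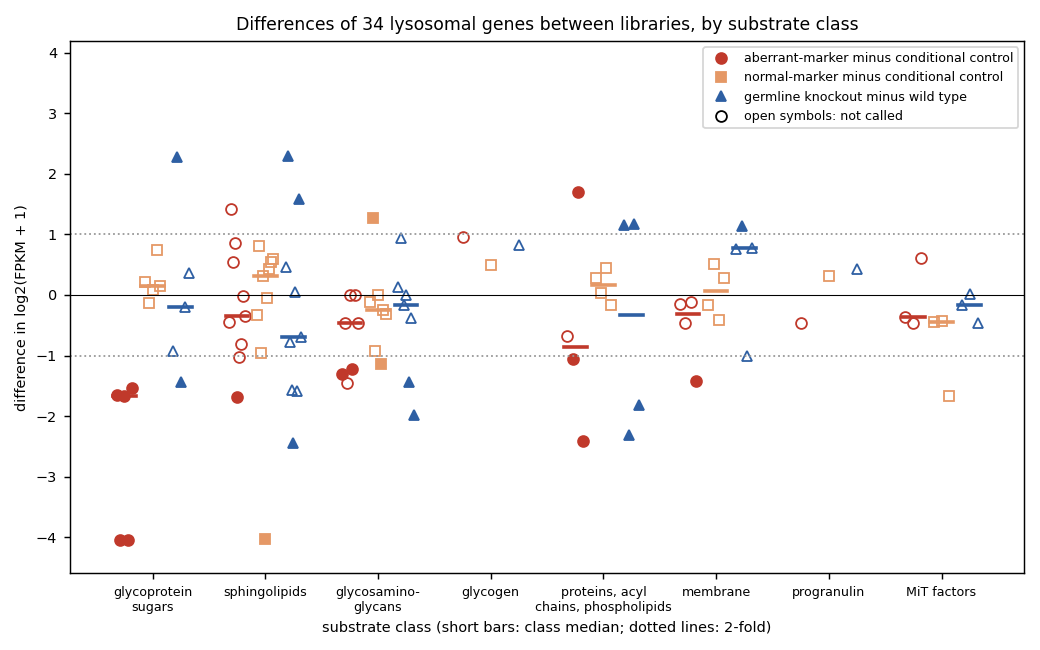
Difference in log2(FPKM + 1) of each gene in 3 comparisons of a knockout library with its own control, by substrate class, with filled symbols for called genes, open symbols for others and short bars for class medians. The glycoprotein class lies at -1.54 or below in the aberrant-marker comparison and between -0.13 and 0.74 in the normal-marker one, and in the germline comparison the membrane class has a median of 0.77.

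Germline knockout macrophages, against wild type, had 6 genes higher and 6 lower of 28 at the floor. Psap, Gla, Tpp1, Scpep1, Lamp2 and Manba were higher (21.4%, against 15.6% of all genes), and Arsa, Ids, Galns, Fuca1, Ppt1 and Pla2g15 were lower (21.4%, against 22.9%). At 4-fold 4 were called, Gla, Manba, Arsa and Ppt1 (14.3%, against 15.5%). The median difference of the group was -0.08, against -0.10 over genes with a mean of at least 20 FPKM. The 5 higher genes other than Manba and the 5 lower genes other than Fuca1 were apart from the conditional control as well (17.9% higher, against 10.1%, and 17.9% lower, against 13.5%). In the same library 5 of 10 alveolar macrophage markers were called lower (50%, against 22.9% of all genes) and 1 higher (10%, against 15.6%). All 5 markers of monocyte-derived or interstitial macrophages at the floor, of 7 measured, were called higher (100%, against 15.6%). Of the 8 dendritic cell markers 3 reached the floor and 2, Ccr7 and Ccl22, were called higher (66.7%, against 15.6%). The part of these markers in these results was not tested.

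The higher genes of the germline knockout included the most abundant one. Psap, given above, differed by 1.59, and the 9 sphingolipid genes with it summed to 7116 FPKM in the germline knockout library, against 3010 FPKM in the wild-type library. Without Psap the other 8 summed to 1143 FPKM in the germline knockout library, against 1027 FPKM in the wild-type library, and the median difference of the class was -0.70. Gla read 39.5 and 37.5 FPKM in the germline knockout samples, against 7.40 and 6.68 FPKM in the wild-type samples (2.29). Its enzyme removes the terminal galactose of globotriaosylceramide, the substrate stored in Fabry disease. Tpp1 read 227 and 231 FPKM in the germline knockout samples, against 100.5 and 104 FPKM in the wild-type samples (1.16). Scpep1 read 291 FPKM in both germline knockout samples, against 129 and 127 FPKM in the wild-type samples (1.18). For Gla, Psap and Tpp1 the germline knockout values lay above those of all other libraries, while Scpep1 was as high in the aberrant-marker library. How common such values were among all genes was not counted.

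Of the 4 membrane proteins 1 was called higher in the germline knockout (25%, against 15.6% of all genes). Lamp2, which serves in the fusion of autophagosomes and in chaperone-mediated autophagy, read 321 and 332 FPKM in the germline knockout samples, against 144 and 150.3 FPKM in the wild-type samples (1.14). Lamp1 read 1528 and 1508 FPKM in the germline knockout samples, against 885 and 904 FPKM in the wild-type samples (0.76, not called). Tcirg1 read 155 and 156 FPKM in the germline knockout samples, against 87.7 and 92.3 FPKM in the wild-type samples (0.78, not called). Mcoln1 read 32.6 FPKM in the germline knockout and 66.3 FPKM in the wild-type library (-1.001, which did not reach 2-fold in every pairing of samples and was not called). The 4 membrane genes summed to 2032 FPKM in the germline knockout library, against 1198 FPKM in the wild-type library.

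Lower genes of the germline knockout were 3 sulfatases, Arsa, Ids and Galns, together with Ppt1, Pla2g15 and Fuca1. Arsb, another sulfatase of the group, was under the floor and differed by -0.17. Of the arylsulfatase genes in the further lists below, Arsg was called higher (4.84) and Arsk lower (-1.38). Ppt1 read 39.5 and 40.4 FPKM in the germline knockout samples, against 202 FPKM in both wild-type samples (-2.31). Pla2g15 read 72.6 and 71.5 FPKM in the germline knockout samples, against 255 and 256 FPKM in the wild-type samples (-1.81). Fuca1 read 62.9 and 66.8 FPKM in the germline knockout samples, against 178 and 176 FPKM in the wild-type samples (-1.43). By the rule for calls, germline knockout and wild-type values cannot overlap for a called gene, for these 3 genes or for the sulfatases. Arsa read 4.40 and 5.04 FPKM in the germline knockout samples, against 29.6 and 30.4 FPKM in the wild-type samples (-2.44). Ids read 8.57 and 8.90 FPKM in the germline knockout samples, against 25.7 and 25.3 FPKM in the wild-type samples (-1.44). Galns, the sulfatase of keratan sulfate and chondroitin sulfate, read 7.08 and 6.95 FPKM in the germline knockout samples, against 31.5 and 30.0 FPKM in the wild-type samples (-1.98). Galc and Smpd1 differed by -1.57 and -1.58 under the floor of 20 FPKM. Man2b1 read 71.0 FPKM in the germline knockout and 135 FPKM in the wild-type library (-0.92). Aga (-0.19) and Neu1 (0.37), both called lower in the aberrant-marker library, were not called here.

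The aberrant-marker comparison and the germline comparison share no library. Arsa, Ids, Fuca1, Ppt1 and Pla2g15 were lower in both, which is 45.5% of the 11 lower in the aberrant-marker comparison and 83.3% of the 6 lower in the germline one. Over all genes 383 were lower in both, 37.0% of 1035 and 37.6% of 1018. Of the 5 genes, Ids (-1.10) and Ppt1 (-0.93) were no longer called in the aberrant-marker comparison with libraries scaled to one median, and Fuca1 (-0.997) was no longer called in the germline knockout against the conditional control. Arsa and Pla2g15 were called in both comparisons under these settings too. Scpep1 was higher in both, which is 100% of the 1 gene higher in the aberrant-marker comparison and 16.7% of the 6 higher in the germline one, against 21.3% and 29.9% over all genes. Manba was the 1 gene of the group called in opposite directions, against 102 over all genes compared. It read 30.8 and 32.0 FPKM in the germline knockout samples, against 6.12 and 5.25 FPKM in the wild-type samples (2.28). Its germline knockout level of 31.4 FPKM was below the 48.8 FPKM of the conditional control library, so the sign of its difference depends on the control.

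**Figure D4:**
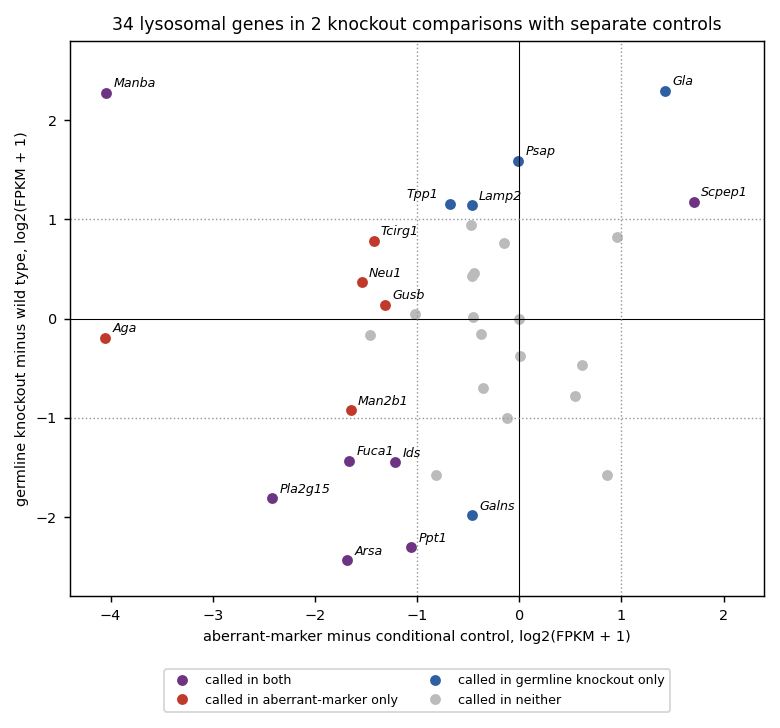
Difference of each gene in the germline comparison against its difference in the aberrant-marker comparison, both in log2(FPKM + 1), with genes called in either comparison named. Arsa, Ids, Fuca1, Ppt1 and Pla2g15 lie low on both axes, Scpep1 lies high on both, and Manba lies at -4.04 and 2.28.

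**Figure D5:**
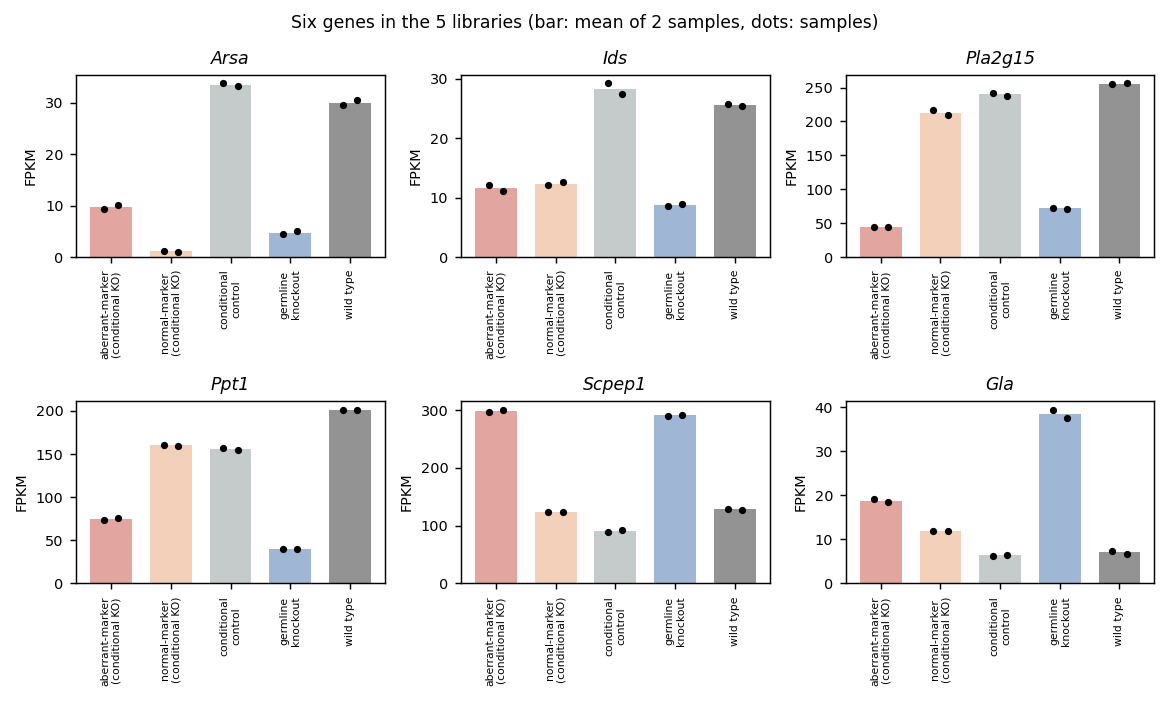
FPKM of Arsa, Ids, Pla2g15, Ppt1, Scpep1 and Gla in the 5 libraries, on linear axes that start at 0, with bars for the mean of 2 samples and dots for the samples. Arsa, Ids, Pla2g15 and Ppt1 are each highest in a control library, Scpep1 is highest in the aberrant-marker and germline knockout libraries, and Gla is highest in the germline knockout.

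The 2 control libraries, which differ in line and in the genes of the sex check, show how far libraries without a Bach2 knockout lay apart. Wild-type macrophages, against conditional control macrophages, differed by a call in 1 of 27 genes, Manba, which was lower (3.70%, against 10.8% of all genes). It was also the 1 call at 4-fold (3.70%, against 5.47%), and 0 of the genes were higher (background 9.89%). The median difference of the group was 0.00. The other 33 genes thus lay within 2-fold or under the floor between the controls.

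Of the MiT family, Tfeb, Tfe3 and Mitf were not called in any comparison. Tfeb read 48.8 FPKM in the aberrant-marker, 46.1 FPKM in the normal-marker, 63.4 FPKM in the conditional control, 39.5 FPKM in the germline knockout and 44.3 FPKM in the wild-type library. Tfe3 lay at 23.6 to 32.9 FPKM. Against its own control no knockout library differed by more than 0.46 in either gene. The reads of Tfeb were spread over several transcripts, and the one with the largest mean read 14.1 FPKM in the aberrant-marker, 14.7 FPKM in the normal-marker, 49.1 FPKM in the conditional control, 13.2 FPKM in the germline knockout and 17.8 FPKM in the wild-type library. On that transcript alone Tfeb was called lower in the aberrant-marker, the normal-marker and the wild-type library, each against the conditional control. Another of its transcripts read 27.8 FPKM in the aberrant-marker, 24.5 FPKM in the normal-marker and 0.124 FPKM in the conditional control library. That transcript read 24.9 FPKM in the germline knockout and 20.8 FPKM in the wild-type library, so it went the other way against the conditional control. Mitf, whose reads were spread over 6 transcripts, stayed under the floor, at 12.03 FPKM in the aberrant-marker, 1.67 FPKM in the normal-marker, 7.53 FPKM in the conditional control, 8.79 FPKM in the germline knockout and 12.5 FPKM in the wild-type library. It differed by -1.68 in the normal-marker against the conditional control library and by 2.29 in the aberrant-marker against the normal-marker library. With a floor of 5 FPKM Mitf was called in both of these comparisons. The related Tfec, which is not among the 34 genes, averaged 7.48 FPKM in the aberrant-marker, 46.9 FPKM in the normal-marker, 18.0 FPKM in the conditional control, 69.8 FPKM in the germline knockout and 79.6 FPKM in the wild-type library. It was called higher in the normal-marker library against the conditional control (1.34) and lower in the aberrant-marker against the normal-marker library (-2.50), and it was also higher in wild type against the conditional control (2.09). The activity of the MiT factors is set largely by phosphorylation and nuclear entry, which RNA levels do not measure. In all, 20 of the 34 genes were called in at least 1 of the 4 comparisons that involve a knockout library, and 14 in none (Hexa, Galc, Asah1, Gm2a, Arsb, Sgsh, Idua, Gaa, Lamp1, Mcoln1, Grn, Tfeb, Tfe3 and Mitf). Some of these comparisons share a library, and the share of all genes called in at least 1 of them was not counted.

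Further lysosomal genes, from lists chosen by function, were read by the same rule. Of 26 other soluble hydrolases 21 reached the floor in the aberrant-marker comparison, where 3 were higher (14.3%, against 20.8% of all genes) and 7 lower (33.3%, against 22.1%). In the germline knockout 6 of 23 were higher (26.1%, against 15.6%) and 4 lower (17.4%, against 22.9%). Plbd1, a phospholipase B-like protein, read 122 and 121 FPKM in the aberrant-marker samples, against 0 and 0.0588 FPKM in the conditional control samples. It read 40.2 and 41.3 FPKM in the germline knockout samples and was listed at 0 in both wild-type samples. Ppt2, a thioesterase related to Ppt1, averaged 3.69 FPKM in the aberrant-marker and 74.2 FPKM in the conditional control library (-4.00). Lipa, the acid lipase of cholesteryl esters, averaged 63.9 FPKM in the aberrant-marker and 371 FPKM in the conditional control library (-2.52). In the germline knockout the next in size after Plbd1 were Arsg, a sulfatase of heparan sulfate, at 28.2 FPKM against 0.0176 FPKM in wild type, and Hpse, the heparanase, at 24.6 FPKM against 0.358 FPKM in wild type. In the normal-marker library 1 of 20 at the floor was higher, Acp2, an acid phosphatase (5%, against 8.87%), and 0 were lower (background 10.7%).

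Of 24 other membrane proteins 16 reached the floor in the aberrant-marker comparison, where 3 were higher (18.8%, against 20.8% of all genes) and 6 lower (37.5%, against 22.1%). In the germline knockout 5 of 17 were higher (29.4%, against 15.6%) and 2 lower (11.8%, against 22.9%). Slc11a1, the phagosomal metal transporter Nramp1, read 121 and 133 FPKM in the aberrant-marker samples, against 4.495 and 4.07 FPKM in the conditional control samples (4.60). It read 188 and 176 FPKM in the germline knockout samples, against 5.04 and 5.52 FPKM in the wild-type samples (4.86). Mcoln3, a mucolipin channel related to Mcoln1, averaged 17.5 FPKM in the aberrant-marker and 113 FPKM in the conditional control library (-2.62), and Sidt2 averaged 13.8 FPKM in the aberrant-marker and 58.4 FPKM in the conditional control library (-2.01). Gpnmb, a glycoprotein raised in macrophages under lysosomal load, averaged 1633 FPKM in the germline knockout and 229 FPKM in the wild-type library (2.83). Clcn7, the chloride and proton exchanger, averaged 66.9 FPKM in the germline knockout and 25.5 FPKM in the wild-type library (1.36). In the normal-marker library 1 of 16 at the floor was higher, Gpnmb (6.25%, against 8.87%), and 0 were lower (background 10.7%).

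Of 17 subunits of the proton pump beside Tcirg1, 1 was higher (6.25%, against 20.8% of all genes) and 0 lower (background 22.1%) in the aberrant-marker library, among 16 at the floor. In the normal-marker library 3 of 17 were higher (17.6%, against 8.87%) and 0 lower (background 10.7%), and in the germline knockout 3 of 16 were higher (18.8%, against 15.6%) and 0 lower (background 22.9%). Atp6v0a1, which like Tcirg1 encodes an a subunit of the membrane part, read 62.5 and 61.7 FPKM in the aberrant-marker samples, against 23.0 and 24.5 FPKM in the conditional control samples (1.35), where Tcirg1 was lower. It averaged 125 FPKM in the germline knockout and 46.65 FPKM in the wild-type library (1.40). Atp6v1c1 averaged 251 FPKM in the germline knockout and 83.8 FPKM in the wild-type library (1.57), and Atp6v0c, which forms the rotor ring, 2692 FPKM in the germline knockout and 1161 FPKM in the wild-type library (1.21).

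Of 12 genes of enzyme maturation and delivery 3 were lower (33.3%, against 22.1% of all genes) and 0 higher (background 20.8%) in the aberrant-marker library, among 9 at the floor. In the germline knockout 2 of 7 were lower (28.6%, against 22.9%) and 0 higher (background 15.6%). Sort1, the sorting receptor that carries some hydrolases from the Golgi, read 13.4 and 13.3 FPKM in the aberrant-marker samples, against 115 and 118 FPKM in the conditional control samples (-3.03). It read 32.3 and 33.7 FPKM in the germline knockout samples, against 115 and 110.5 FPKM in the wild-type samples (-1.74). Nagpa, which uncovers the mannose 6-phosphate tag, averaged 27.1 FPKM in the aberrant-marker and 74.8 FPKM in the conditional control library (-1.43), and M6pr, the cation-dependent receptor of that tag, 98.0 FPKM in the aberrant-marker and 224 FPKM in the conditional control library (-1.18). Sumf1, which activates all sulfatases by modifying their catalytic cysteine, averaged 17.1 FPKM in the germline knockout and 45.7 FPKM in the wild-type library (-1.37). In the normal-marker library 0 of 9 were called (background 8.87% higher and 10.7% lower).

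Of 17 genes listed as control of the MiT factors, Tfec among them, 1 was higher (10%, against 20.8% of all genes) and 1 lower (10%, against 22.1%) in the aberrant-marker library, among 10 at the floor. In the germline knockout 2 were higher (15.4%, against 15.6%) and 0 lower (background 22.9%), among 13. In the normal-marker library 1 was higher, Tfec (9.09%, against 8.87%), and 1 lower, Lamtor4, a Ragulator subunit (9.09%, against 10.7%), among 11. Lamtor4 averaged 25.8 FPKM in the normal-marker and 77.4 FPKM in the conditional control library (-1.55). Lamtor2, a subunit of the Ragulator complex that anchors mTORC1 on the lysosome, averaged 114 FPKM in the aberrant-marker and 403 FPKM in the conditional control library (-1.82). Flcn, folliculin, averaged 71.7 FPKM in the aberrant-marker and 22.9 FPKM in the conditional control library (1.60). Fnip2, a partner of folliculin, averaged 21.8 FPKM in the germline knockout and 2.78 FPKM in the wild-type library (2.60), and Tsc2, 24.3 FPKM in the germline knockout and 11.2 FPKM in the wild-type library (1.06).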

How the data were processed

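RNA of 10 samples, 2 per group in 5 groups, was amplified from 100 pg with a SMARTer kit and sequenced, per the labels' protocols. The FPKM values were computed per transcript by the authors before they were deposited. The table's header names no unit, so a further factor per library, as in TPM, cannot be told apart. The submitters' processing notes name Bowtie 1.1.2 and eXpress 1.5.1 without saying what each did, and the build is not given in the sources used here. Strand is not marked, so overlapping antisense genes cannot be told apart, and reads shared by similar transcripts are estimates. All 10 columns matched a sample title, and 0 were left out.

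FPKM were summed per gene (Python 3.11.15, pandas 2.3.3, numpy 2.4.6). A gene entered with 1 FPKM or more in 2 or more samples (11336 genes), and 1 FPKM was added before the log2. Since the columns of each group were near-identical, no test was made and the size rule was used, with its floor of 20 FPKM. The size rule was tested on simulated data made from the conditional control library, with noise only from the difference between its samples. That simulation held no spread between mice or between libraries, so it cannot show whether a call would repeat. The genes named are the 34 genes, Bach2, Xist, Eif2s3y, and up to 3 called genes of each further lysosomal list by size of change. Tfec in the account of the MiT factors, Arsk, and the markers given by name, were picked with their values in view. The 34 genes and the lists were chosen with earlier results of these data known. Substrate classes follow the main substrate, and some enzymes act on several. Background percentages count genes that reached the floor in the same comparison. Depth is an estimate from the lowest values of genes with a known transcript length. Promoters came from RefSeq. Alternatives tried were another pseudocount, floor, filter and fold threshold, scaling to one median, leaving out each sample, and the largest transcript alone.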

Additional observations from a re-analysis of the deposited data

Results flagged for a closer look

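Manba moved in opposite directions in the comparisons of the knockout libraries with their own controls. Its log2 difference was -4.04 in aberrant-marker against conditional control macrophages and 2.28 in germline knockout against wild-type macrophages. Every sample showed the direction of its comparison, as the rule for calls requires. The difference between these effects was not tested. Over all genes compared, 102 were called in opposite directions in these comparisons. The control libraries themselves differed, with 5.69 FPKM of Manba in the wild-type and 48.8 FPKM in the conditional control library.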

How the results depend on the processing

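Each call rests on 1 library per group, so the spread between mice is unknown. No paired analysis was possible because the result comes from no test and the samples of a group were counted as 1 library. All 41 calls on single genes kept their direction under the alternatives chosen at the start. With a pseudocount of 0.1 FPKM, 2 genes were lower in the normal-marker library than in both controls. With a floor of 5 FPKM, 2 were higher in aberrant-marker against conditional control, 4 in aberrant-marker against normal-marker and 2 in aberrant-marker against both controls, and 2 were lower in normal-marker against both controls. With a 4-fold threshold, aberrant-marker against conditional control gave 0 higher and 3 lower, normal-marker against conditional control 0 and 1, aberrant-marker against normal-marker 0 and 3, germline knockout against wild type 2 and 2, aberrant-marker against both controls 0 and 2, and germline knockout against both controls 1 and 1. With libraries scaled to one median, aberrant-marker against conditional control gave 2 higher, with Gaa added, and Ids and Ppt1 were no longer called lower. Leaving out 1 sample of each group gave 1 to 2 higher in aberrant-marker against conditional control and 1 to 2 lower in normal-marker against both controls, and Smpd1 was no longer called between the fractions. With the largest transcript alone, 2 were higher in aberrant-marker and 4 lower in normal-marker against conditional control, 2 lower in wild type against conditional control and 2 lower in normal-marker against both controls. Tfeb was among the genes added as lower in all 3 comparisons with the conditional control, although another of its transcripts went the other way. Gaa was added as higher in aberrant-marker, and Lamp2 was no longer called in the germline knockout. With the other control library as reference, a choice made after seeing the data, Gusb and Manba were no longer called in the aberrant-marker library, Naglu and Ids in the normal-marker library, nor Manba and Fuca1 in the germline knockout, where the difference of Manba reversed to -0.62. Ids (-0.99) and Fuca1 (-0.997) lay just under 2-fold there. Gained were Asah1 and Naglu in the aberrant-marker, Glb1 and Manba in the normal-marker and Naglu in the germline knockout library. The cause of these changes was not tested, except where fewer genes pass a higher threshold.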
